A study of Mus musculus with 50 samples.

Results

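CpG-poor promoter clusters are short groups of neighbouring CpGs, 2 to 9 in number, that lie in a gene promoter. They were taken from the clusters defined in the deposited table, in which CpGs at most 100 bp apart were joined and a promoter reached 3000 bp upstream and 1000 bp downstream of the transcription start. A cluster was a member when the table counted 2 to 9 CpGs in it and at least 1 of its covered CpGs lay in a promoter. By that rule 1069 of 51038 clusters were members, at the promoters of 1021 genes, and methylated and unmethylated calls were summed over the covered CpGs of each. No methylation value entered the choice.

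Most vertebrate promoters of widely used genes are CpG islands, stretches dense in CpGs that stay unmethylated. Promoters outside islands hold few CpGs, and their methylation differs from gene to gene and from tissue to tissue. DNMT3A is a DNA methyltransferase that places methyl groups on unmethylated CpGs, and it is known to act at the flanks of islands, called shores, and in gene bodies more than at the protected centre of an island.

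DNA was taken from 1 soleus muscle, a postural calf muscle made mostly of slow fibres, of each of 44 C57BL/6 mice of both sexes, 12 weeks old, and methylation was read by reduced representation bisulfite sequencing (RRBS). All mice carried Dnmt3a alleles with loxP sites around exon 19, so WT here means flox/flox without Cre, and mD3AKO means flox/flox with a Cre transgene driven by the muscle creatine kinase (mCK) promoter. Muscles were collected after sham treatment (rest, 5 WT and 5 mD3AKO) or following a treadmill run, after 10 min (5 WT and 5 mD3AKO), 30 min (5 WT and 7 mD3AKO) or 60 min (6 WT and 6 mD3AKO). The mCK promoter is active late in muscle differentiation, so satellite cells and the immune, vascular and connective cells of the muscle keep Dnmt3a, and in whole muscle a change within 1 cell type and a change in the shares of cell types cannot be told apart.

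A sample held 12819404 to 41285655 methylation calls. A member held 8 or more calls in every sample, and the median of its lowest sample was 31 calls, against 44 over all clusters and 224 in promoter clusters of 10 or more CpGs. Intervals from such counts would cover counting error at most, and not the spread between animals. The methods mention no molecular identifiers for the RRBS reads, so calls cannot be taken as separate molecules. Rest and 60 min have sample numbers up to 25, and the other times have the numbers from 26 on, so those sets of numbers are crossed with genotype but not with time. Levels of 8 samples (3 WT and 5 mD3AKO) deviated from the mean of all samples by a root mean square of over 15 percentage points over the members, and calls were also made without them. The deletion itself is not seen in methylation counts. Over the 518 called clusters that are not members, the mean level was 31.6 to 37.9% in WT samples and 17.8 to 25.0% in mD3AKO. These clusters were chosen for a genotype difference on these same samples. That choice favours separate ranges, so no conclusion on the labels is drawn from them.

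The sequences of 6 members are shown, from those called with a difference of at least 10 points and 20 calls in every sample, because they let a reader see how few CpGs a member holds. Each is the plus strand of GRCm38 from 40 bases before the first covered CpG to 40 after the last, in lower case, with the covered CpGs in capitals.
Svbp, chr4:119196201-119196304: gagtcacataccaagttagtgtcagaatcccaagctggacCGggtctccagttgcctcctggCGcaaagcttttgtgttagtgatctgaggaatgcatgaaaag
Ermap, chr4:119189496-119189600: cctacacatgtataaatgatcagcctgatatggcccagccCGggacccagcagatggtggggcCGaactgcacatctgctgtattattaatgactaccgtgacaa
Birc2, chr9:7838166-7838331: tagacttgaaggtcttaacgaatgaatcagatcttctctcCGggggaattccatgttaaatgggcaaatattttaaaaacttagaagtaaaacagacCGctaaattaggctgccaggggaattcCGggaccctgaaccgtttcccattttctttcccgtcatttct
Fam110a, chr2:151981514-151981622: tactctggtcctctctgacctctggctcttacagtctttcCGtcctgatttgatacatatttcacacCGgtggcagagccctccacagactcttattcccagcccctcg
Dnajc8, chr4:132532605-132532837: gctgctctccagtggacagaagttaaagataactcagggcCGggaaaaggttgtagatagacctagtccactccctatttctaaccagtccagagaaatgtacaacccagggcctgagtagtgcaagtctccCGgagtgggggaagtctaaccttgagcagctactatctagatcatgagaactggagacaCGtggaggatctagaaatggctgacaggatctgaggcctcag
Ntn5, chr7:45684682-45684798: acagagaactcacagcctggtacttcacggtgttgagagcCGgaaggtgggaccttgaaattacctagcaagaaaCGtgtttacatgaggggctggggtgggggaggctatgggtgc

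These windows held 2 to 6 CpGs each, of which 2 or 3 were covered. Over all members the covered CpGs were few as well. A single covered CpG carried 504 members, 2 carried 336 and 3 or more carried 229. In the 500 bp around a member the GC content had a median of 48.4% and the observed to expected CpG ratio a median of 0.266, with 8 CpGs. By position, 721 members lay in the shore of a CpG island, 299 in open sea and 49 in an island called with the window used here. The centre of the member was upstream of its transcription start in 817 cases and downstream in 249, and 3 members had no start in the annotation used. Between genes lay 550 members, in introns 290, in annotated UTRs 98, in other exons 68 and in coding exons 63.

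The members spanned the whole range of methylation in WT muscle. The level, the share of calls that were methylated, had a median of 46.8% over the members, with quartiles of 16.1 and 79.3%. In WT, 12.9% of the members were under 5%, 46.8% were between 20 and 80%, and 24.0% were at 80% or more. Promoter clusters of 10 or more CpGs had a median of 0.778%, and 84.9% of them were under 5%. CpG-poor clusters in gene bodies had a median of 69.7%, with 2.18% under 5%, and those between genes had a median of 71.7%. The members therefore stood between the nearly empty CpG-dense promoters and the mostly methylated CpG-poor remainder of the genome.

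**Figure D1:**
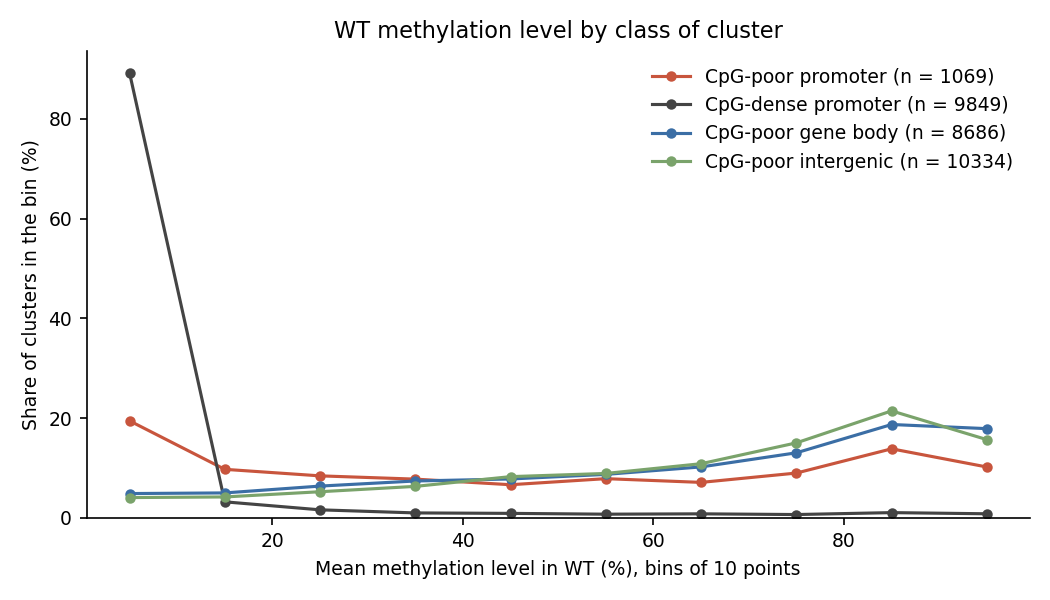
Share of clusters (y axis, percent of the class) in each 10-point bin of the mean WT methylation level (x axis), for the CpG-poor promoter clusters and 3 other classes. CpG-dense promoter clusters were concentrated in the lowest bin, CpG-poor gene body and intergenic clusters in the highest bins, and the CpG-poor promoter clusters were spread over all 10.

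The level followed the distance to the transcription start. The 278 members within 500 bp of the start had a median WT level of 22.2%, the 280 at 500 to 1000 bp a median of 31.6%, and the 508 farther away a median of 67.1%. Members downstream of the start had a median of 27.0% and those upstream 52.8%. In islands the median was 6.31%, in shores 40.2% and in open sea 66.6%. These are descriptions over members, which share neighbourhoods and animals, and carry no test.

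Where the same promoter also held a CpG-dense cluster, the pair differed in level. This was the case for 531 members at 503 genes. Their median WT level was 37.6%, whereas the dense clusters of the same promoters had a median of 0.893%, and the CpG-poor cluster had the higher level in 476 of the 531. Among the 48 genes with more than 1 member the highest and lowest member differed by a median of 22.1 points in WT, and by as much as 85.6 points.

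Animals of 1 genotype also differed from each other. The standard deviation among the 21 WT samples had a median of 11.5 points over the members, against 9.76 over all clusters and 1.10 in CpG-dense promoter clusters. In CpG-poor gene body and intergenic clusters the median was higher, 12.7 and 12.9 points. At WT levels of 20 to 80% it was 15.2 points in the members and 15.5 over all clusters. Among the members the SD was over 20 points in 129 and under 5 points in 148. Members resting on a single covered CpG had a median SD of 14.4 points, those with 2 had 10.8, and those with 3 or more had 7.76. The call depth rises with the number of covered CpGs, and its part in this spread was not tested.

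The genotypes were compared over all 4 times, to ask which promoter clusters lost or gained methylation in mD3AKO muscle. The level was lower in mD3AKO at 14 of the 1069 members with an adjusted p under 0.05 (edgeR quasi-likelihood test, two-sided, Benjamini-Hochberg adjustment over all 51038 clusters), and higher at 0. That is 1.31% of the members, and over all clusters 1.04% were called lower. Among other classes the called share was 1.17% in CpG-dense promoter clusters, 1.01% in CpG-poor gene body clusters and 0.484% in CpG-poor intergenic clusters. The members' share was thus near the background. At an unadjusted p under 0.05, 100 members were lower (9.35%; 8.28% of all clusters) and 6 were higher (1.25% of all clusters).

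Beyond the calls, small differences in 1 direction were common. The mean level was lower in mD3AKO at 701 of the 1069 members, or 65.6%, and at 62.4% of all clusters. The median difference was -1.37 percentage points over the members, with quartiles of -4.28 and 0.716. Over all clusters the median was -0.455 points. CpG-poor gene body clusters had a median of -1.58 points and CpG-dense promoter clusters, with almost no methylation to lose, -0.0736. The median difference of the members was smaller than the median SD among WT samples (11.5 points). A difference of 10 points or more was seen downward at 57 members, of which 10 were called, and upward at 8, of which 0 were called.

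**Figure D2:**
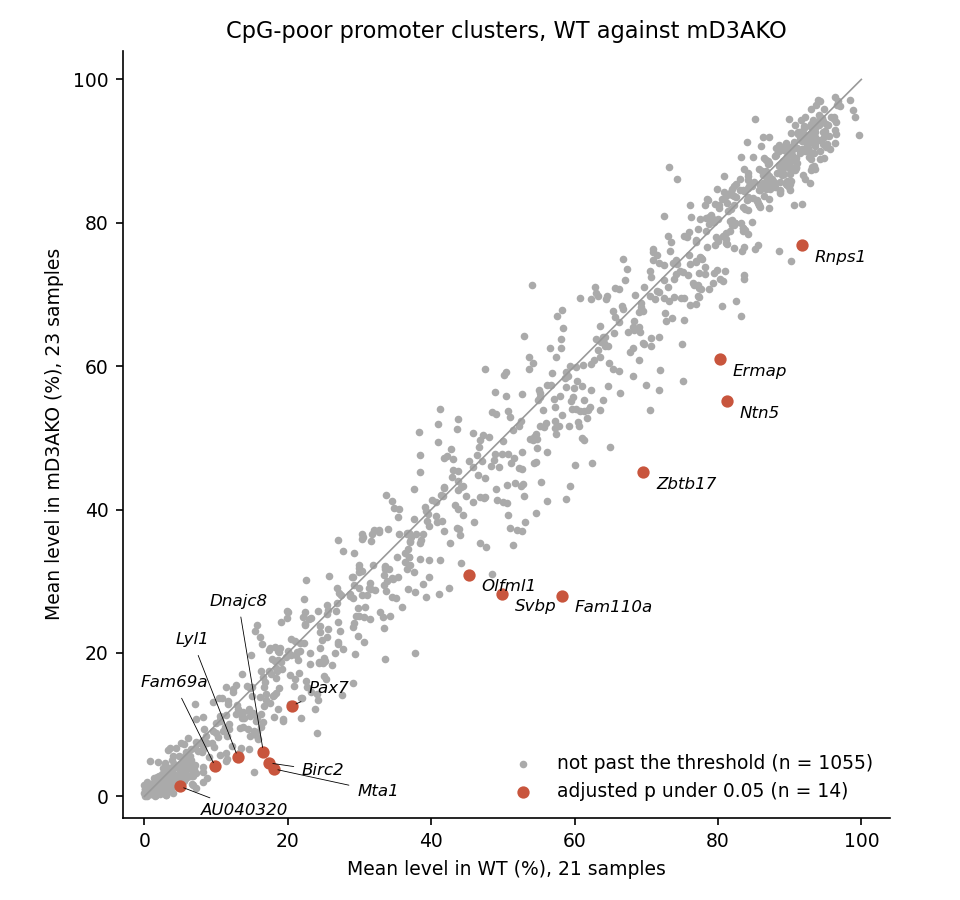
Mean methylation level in WT (x axis, percent, 21 samples) against mD3AKO (y axis, percent, 23 samples) for the 1069 CpG-poor promoter clusters, with the line of equal levels. The 14 members past the threshold are in colour with their genes, and all 14 lie below the line.

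The called members lay at promoters of genes with unlike roles. Described first are the 7 that differed by at least 10 points and had at least 20 calls in every sample. These belong to Svbp, Ermap, Birc2, Fam110a, Dnajc8, Olfml1 and Ntn5. All 7 were lower in mD3AKO at each of the 4 times. They were chosen for their difference on these same samples. That choice favours this agreement and the separation of samples given below, which are descriptions only.

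Svbp encodes the small partner of the vasohibins, enzymes that remove the terminal tyrosine of tubulin. Its member lay in the first part of the gene, in an intron, 344.5 bp downstream of the start (chromosome 4, 119196241 to 119196264, in an island shore, 2 covered CpGs of 4). The level ran from 31.4% through a median of 48.8% to 75.6% in WT, and from 9.69% through 27.6% to 48.4% in mD3AKO. The groups overlapped, but 17 of the 23 mD3AKO samples were below the lowest WT sample, and 23 of 23 were below the WT mean. The means were 49.9% ± 8.74 (SD, n = 21) and 28.2% ± 9.50 (SD, n = 23). The log2 odds ratio was -1.42 with an SE of 0.231 (edgeR quasi-likelihood test, adjusted p = 0.00037).

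Ermap, which encodes an erythroid membrane protein that carries a blood group in humans, has its promoter next to that of Svbp. The members of the 2 genes were 6680 bp apart, so they are neighbours and not independent places in the genome. Between them lay 1 cluster, of 60 CpGs, at 0.642% in WT and 0.551% in mD3AKO (edgeR quasi-likelihood test, adjusted p = 0.973). The Ermap member (chromosome 4, 119189536 to 119189560, intron, 403 bp downstream of the start, in a shore) ran from 64.1% through 81.0% to 95.7% in WT and from 37.3% through 60.1% to 76.2% in mD3AKO. Here 13 mD3AKO samples were below every WT sample and 13 WT samples above every mD3AKO sample. The means were 80.3% ± 7.63 (SD, n = 21) and 61.0% ± 9.78 (SD, n = 23), with a log2 odds ratio of -1.44 (SE 0.248, edgeR quasi-likelihood test, adjusted p = 0.00078).

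Birc2 encodes a cellular inhibitor of apoptosis, a ubiquitin ligase. Its member lay between genes, in a shore 1184.5 bp upstream of the start (chromosome 9, 7838206 to 7838291). It had little methylation to begin with, from 1.67% through 17.6% to 29.0% in WT, and less in mD3AKO, from 0 through 4.00% to 14.6%. The WT mean of 17.3% ± 6.77 (SD, n = 21) stood against 4.67% ± 3.73 (SD, n = 23), and the log2 odds ratio was -2.37 (SE 0.422, edgeR quasi-likelihood test, adjusted p = 0.00112). All 23 mD3AKO samples were below the WT mean, and 14 WT samples were above the highest mD3AKO sample, while 5 mD3AKO samples were below the lowest WT sample.

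The largest difference in points among all members was at Fam110a, whose product is associated with the centrosome. The member lay between genes, in a shore 1349 bp upstream of the start (chromosome 2, 151981554 to 151981582). The level ran from 29.1% through 60.4% to 77.9% in WT and from 0 through 28.8% to 54.5% in mD3AKO. The means were 58.3% ± 13.8 (SD, n = 21) and 28.0% ± 13.9 (SD, n = 23), a difference of -30.3 points. With a log2 odds ratio of -1.98 (SE 0.375, edgeR quasi-likelihood test, adjusted p = 0.00216), all 23 mD3AKO samples were below the WT mean.

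The member assigned to Dnajc8, which encodes a J-domain co-chaperone, lay 2829 bp upstream of that gene's start (chromosome 4, 132532645 to 132532797, in a shore). It overlapped the annotated genes Atpif1 and Gm12999 and an exon of at least 1 of them. Its level ran from 3.54% through 17.0% to 29.6% in WT and from 0 through 5.36% to 18.1% in mD3AKO. The groups overlapped, with 7 mD3AKO samples below the lowest WT sample and 7 WT samples above the highest mD3AKO sample, and 21 of 23 were below the WT mean. The log2 odds ratio was -1.97 (SE 0.406, edgeR quasi-likelihood test, adjusted p = 0.00542).

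Olfml1 and Ntn5 both encode secreted proteins, an olfactomedin-like protein and a netrin, and both members were in open sea. The Olfml1 member overlapped an annotated UTR 158 bp downstream of the start (chromosome 7, 107567546 to 107567662). Its WT samples ran from 37.1% through 40.9% to 60.6% and its mD3AKO samples from 13.5% through 30.3% to 46.7%, and 18 mD3AKO samples were below every WT sample. The Ntn5 member lay in an intron 311 bp downstream of the start, where Sec1 is also annotated (chromosome 7, 45684722 to 45684758). There the WT samples ran from 57.1% through 85.4% to 98.1% and the mD3AKO samples from 9.09% through 55.2% to 80.9%. The log2 odds ratios were -0.93 (SE 0.194) at Olfml1 and -2.08 (SE 0.439) at Ntn5, with adjusted p of 0.00588 and 0.00658 in the edgeR quasi-likelihood test. In the likelihood ratio test the adjusted p at Olfml1 was 0.270.

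**Figure D3:**
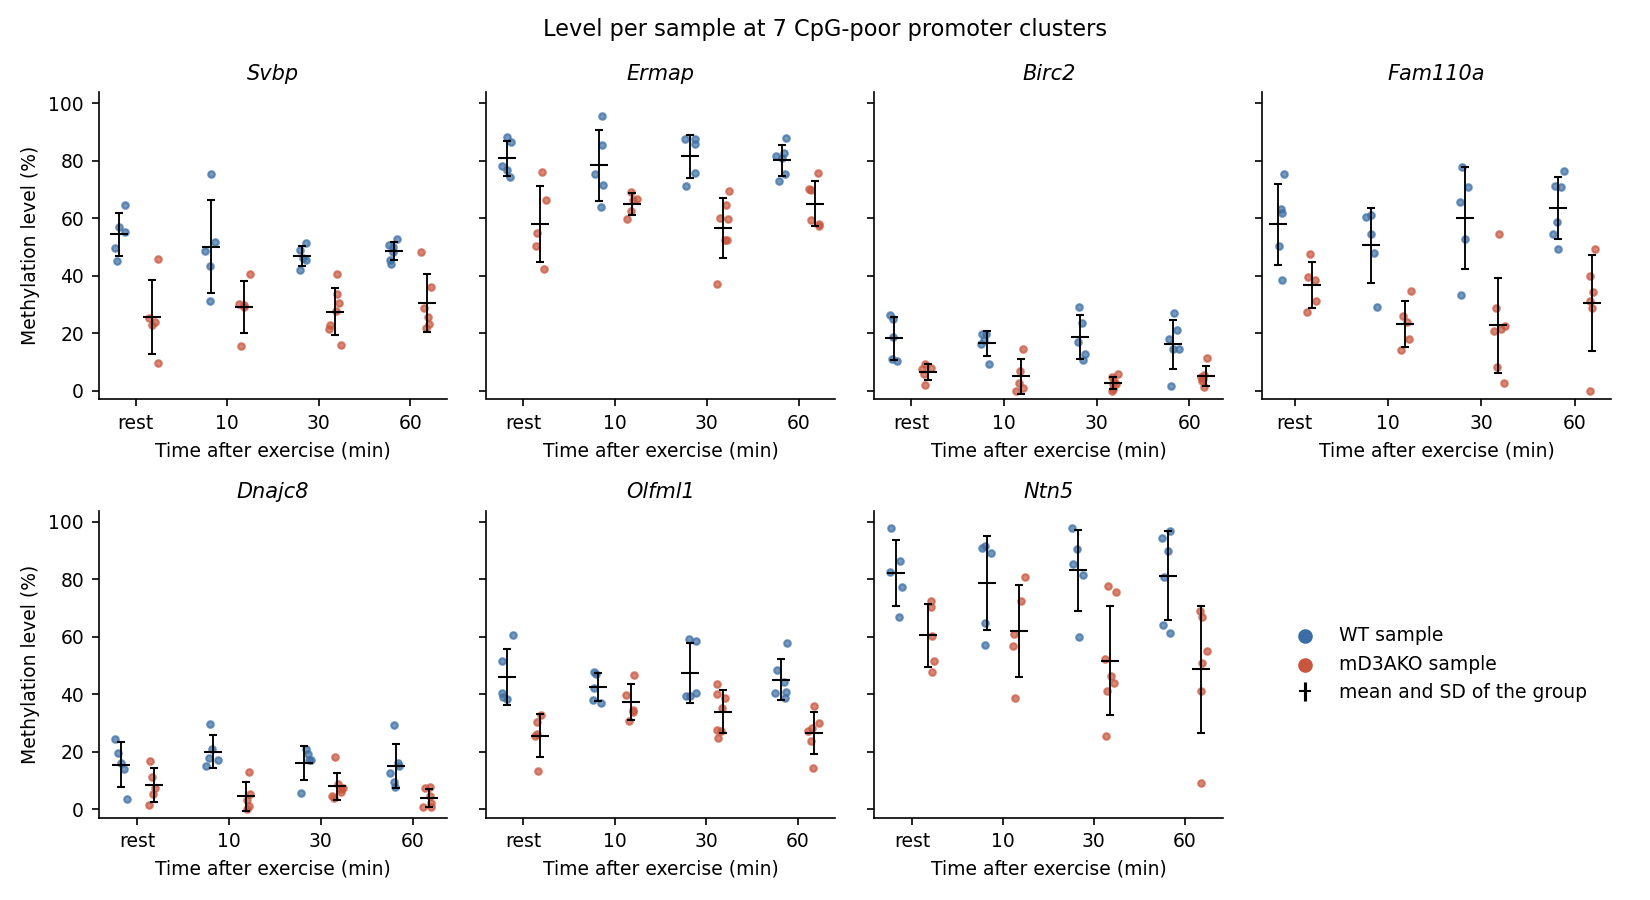
Methylation level (y axis, percent) of each sample by time after exercise (x axis, min) at the 7 called members with a difference of at least 10 points and 20 calls in every sample, with WT and mD3AKO samples as points and the mean and SD of each group as bars. The mean of the mD3AKO samples lies below that of the WT samples at every time in all 7 panels.

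Within a member the difference in points was not evenly shared by its CpGs. At Birc2 the middle of the 3 covered CpGs went from 28.9% ± 12.0 (SD, n = 21) in WT samples to 5.37% ± 5.25 (SD, n = 23) in mD3AKO, while the first differed by -1.21 points and the last by -0.282. At Dnajc8 the middle CpG differed by -16.9 points from a WT level of 27.9%. The first differed by -0.601 points from 2.14%, and the last by -4.02 points, from 4.63% in WT to 0.613% in mD3AKO. A CpG at such a low WT level has few points to lose, which limits what these comparisons in points show. At Svbp the first CpG differed by -10.8 points from a WT level of 24.3%, and the second by -32.7 points from 75.3%. At Fam110a the first CpG, at 72.9% in WT, differed by -41.9 points and the second, at 43.6%, by -18.7. In these 4 members the CpG with the highest WT level had the largest difference in points. The same order held at Ermap, with -23.2 points from a WT level of 81.3% and -17.5 from 79.9%. Ntn5 had the opposite order, with -20.4 points at the CpG that was at 90.4% in WT and -29.1 at the one at 74.5%. At the 3 CpGs of Olfml1 the differences were -13.8, -11.2 and -14.9. Single CpGs had as few as 9 calls in a sample, and no test was run on them.

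**Figure D4:**
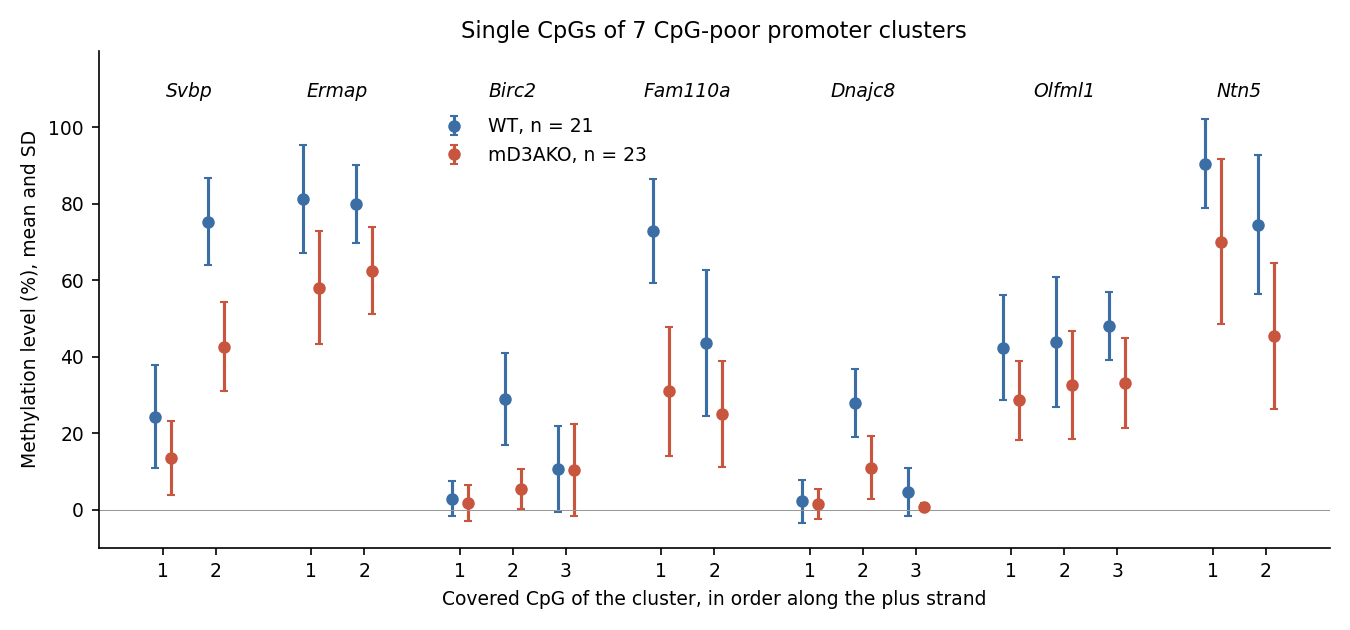
Methylation level (y axis, percent, mean and SD over the 21 WT and 23 mD3AKO samples) of the 17 covered CpGs of the same 7 members, in their order along the plus strand (x axis). At Birc2 and Dnajc8 the middle CpG had the largest difference in points, and the outer CpGs of Dnajc8 had little methylation in WT to lose. At Olfml1 all 3 CpGs differed by similar amounts.

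The other 7 called members rested on smaller differences or fewer calls, and apart from Pax7 they were picked out after their values were seen. Pax7 encodes the transcription factor that marks satellite cells, the stem cells of muscle. Its member, between genes in a CpG island 2835 bp upstream of the start (chromosome 4, 139836261 to 139836465), was 20.6% ± 5.44 (SD, n = 21) in WT samples and 12.6% ± 3.84 (SD, n = 23) in mD3AKO, and 22 of 23 mD3AKO samples were below the WT mean. The log2 odds ratio was -0.85 (SE 0.194, edgeR quasi-likelihood test, adjusted p = 0.0136). The study named Pax7 for methylation on these samples, so this value is not independent evidence of its direction. By bisulfite pyrosequencing, the study also reported lower methylation of a Pax7 promoter region in other leg muscles (EDL and quadriceps) of different male mice. The overlap of that region with this member was not checked. In these soleus samples the adjusted p of the member was 0.0731 without the 8 deviating samples (edgeR quasi-likelihood test). It was 0.137 with CpGs of 20 or more reads alone (same test) and 0.346 in the likelihood ratio test.

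Mta1, Zbtb17 and Lyl1 encode regulators of transcription, a subunit of the NuRD complex, a zinc finger protein that works with MYC, and a basic helix-loop-helix factor of blood cells. The Mta1 member, in an intron, was 18.0% ± 19.17 (SD, n = 21) in WT samples and 3.82% ± 6.13 (SD, n = 23) in mD3AKO, and the Zbtb17 member, between genes, was 69.6% ± 19.4 and 45.2% ± 18.5. Both rested on 1 covered CpG, with as few as 9 and 14 calls in a sample. The Lyl1 member, which overlaps a coding exon of Trmt1, was 13.0% ± 8.38 and 5.50% ± 5.82. Their adjusted p-values were 0.0251, 0.0245 and 0.0482 (edgeR quasi-likelihood test). Without the 8 deviating samples the adjusted p was 0.0789 at Mta1 and 0.251 at Lyl1 in that test. It was 0.239 at Mta1 in the quasi-binomial model and 0.0522 at Lyl1 with sex as a covariate.

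The member of Rnps1, which encodes a splicing factor, rested on 1 covered CpG with as few as 9 calls in a sample. In WT it ran from 4.55% through a median of 100% to 100%, and in mD3AKO from 15.0% through 83.3% to 100%. The WT mean was 69.4% at 30 min, where 1 WT sample was at 4.55%, and 98.1 to 99.8% at the other times. At 30 min the mD3AKO mean was the higher one (77.3%). Over all times 16 of 23 mD3AKO samples were below the WT mean, which includes that low WT sample, and 20 were below the WT median. The adjusted p was 0.0340 with all samples and 0.0779 without the 8 deviating samples (edgeR quasi-likelihood test). The quasi-binomial model gave 0.183. Rnps1 was the only one of the 14 called members that was not lower at all 4 times.

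AU040320 and Fam69a completed the 14. Fam69a encodes a membrane protein of the endoplasmic reticulum. The AU040320 member, in an intron of Ncdn, was 4.93% ± 2.41 (SD, n = 21) in WT samples and 1.40% ± 1.69 (SD, n = 23) in mD3AKO, the smallest called difference in points, and 15 mD3AKO samples were below every WT sample. The Fam69a member, between genes, was 9.87% ± 5.60 and 4.16% ± 3.06. Their adjusted p-values were 0.00588 and 0.0436 (edgeR quasi-likelihood test), and the former was 0.0821 without the 8 deviating samples. In the likelihood ratio test the adjusted p of Fam69a was 0.0538.

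The 14 called members were found at all levels and in all contexts. By WT level, 1 of the 138 members under 5% was called, 5 of 174 at 5 to 20% (2.87%), 5 of 500 at 20 to 80% (1.00%) and 3 of 257 at 80% or more (1.17%). The same bins over all clusters had called shares of 0.659, 3.48, 1.15 and 0.434%. The median difference of the members was -0.126, -1.61, -2.10 and -1.42 points in these bins, and -0.0494, -1.50, -1.72 and -0.896 over all clusters. By context, 10 of 721 shore members (1.39%), 3 of 299 in open sea (1.00%) and 1 of 49 in islands (2.04%) were called, and over all clusters the shares were 1.09, 0.751 and 1.31%. The shore members were lower in mD3AKO in 68.1% of cases and those in open sea in 60.9%, and over all clusters in 65.6 and 62.1%. By distance, 4 of 278 within 500 bp of the start were called, 1 of 280 at 500 to 1000 bp and 9 of 508 beyond.

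The number of covered CpGs went with the called share. It was 0.595% with 1 covered CpG, 1.19% with 2 and 3.06% with 3 or more, and over all clusters it was 0.50, 0.918 and 1.57%, whereas the median difference of the members was -1.39, -1.45 and -1.08 points. Members of 3 or more covered CpGs also had the smaller spread given above, whose part in the calls was not tested. On chromosome 4, which held 77 members, lay 6 of the 14, while 51 of all 3607 clusters there were called (1.41%).

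The median difference changed at the lower of the limits of 2 and 9 CpGs. Members of 2 CpGs (n = 116) had a median WT level of 41.5% and a median difference of -1.51 points, and promoter clusters of 1 CpG, just outside, 48.6% and -0.0518 (n = 102). Members of 9 CpGs (n = 119) had 33.5% and -0.903 points, and promoter clusters of 10 CpGs (n = 111) 28.6% and -1.04. In each of these 4 sets 1 or 2 clusters were called.

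Some promoters held both a called member and a CpG-dense cluster. Of the 503 genes with a member and a dense cluster 7 had a called dense cluster, and of all CpG-dense promoter clusters 1.17% were called. Of the 14 called members, 9 shared a promoter with a CpG-dense cluster, and 0 of these 9 had a called dense cluster (edgeR quasi-likelihood test), with the dense level lower in mD3AKO in 6 of 9. A count of 0 in 9 is near that background share. All but that of AU040320, at 26.6%, were under 5% in WT, for example 0.642% at Svbp, 0.882% at Fam110a and 0.364% at Birc2. Over the 531 members with a dense cluster in the promoter, the median difference was -1.53 points in the CpG-poor cluster and -0.0866 in the dense one.

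Of the gene groups set up for muscle, the myogenic one held the single called member. Lists for 10 kinds of gene, and 1 of selected genes from the study, gave 84 members. In the list of contractile and sarcomere genes, the proteins of the thick and thin filaments, 8 of 100 genes had a member, and 0 of 8 passed the test (0 of 8 also at an unadjusted p under 0.05). Of these, 3 were lower in mD3AKO and 5 higher, with a median of 1.11 points. Cardiac alpha-actin (Actc1) was 25.3% ± 12.0 (SD, n = 21) and 16.4% ± 12.4 (SD, n = 23), and the fast myosin gene Myh4, picked out after its values were seen, was 30.0% ± 10.4 and 31.8% ± 11.8. The adjusted p-values were 0.590 and 0.973 (edgeR quasi-likelihood test).

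The remaining muscle lists had few members. For excitation-contraction coupling, ion channels and the neuromuscular junction, 4 of 68 genes had one, with 4 of 4 lower, a median of -3.34 points and 0 called. Cacng1, a subunit of the calcium channel of muscle, was at 96.2% ± 8.76 (SD, n = 21) and 94.7% ± 8.38 (SD, n = 23). For energy metabolism 6 of 113 genes had one, 3 lower and 3 higher, with 0 called. Their levels were either low, such as 1.99% in WT at Acadl, an enzyme of fatty acid oxidation, or high, such as 87.2% at Pgam2, the muscle phosphoglycerate mutase, likewise picked out afterwards. For myogenic and developmental genes 9 of 89 had one, with 6 lower, a median of -2.82 points and 1 called, which was Pax7. Sox15, a transcription factor of muscle precursors with the next lowest p, was 22.0% ± 11.8 and 13.8% ± 9.00 (edgeR quasi-likelihood test, adjusted p = 0.635).

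Promoters of genes of other cell types in the muscle were looked at in the same way. Of 219 leukocyte genes 13 had a member, with 7 lower, 6 higher, a median of -0.876 points and 0 called, and their WT levels were 29.2 to 94.8%. Cd5, a surface receptor of T cells, was 71.7% ± 26.4 (SD, n = 21) and 56.7% ± 18.0 (SD, n = 23), and Irf8, a transcription factor of myeloid cells with the next lowest p, 50.9% ± 16.9 and 37.5% ± 18.4. Their adjusted p-values were 0.396 and 0.445 (edgeR quasi-likelihood test). Of 103 endothelial, mural, fibroblast and adipocyte genes 4 had one, 3 lower and 0 called. Ephb4, a receptor of venous endothelium, was 6.57% ± 4.83 and 2.79% ± 2.64. In 20 of 23 mD3AKO samples it was below the WT mean, and the adjusted p was 0.340 (edgeR quasi-likelihood test) and 0.0493 in the likelihood ratio test.

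Lists of genes typical of other tissues held no called member either. Of 136 germline genes 11 had one, 5 lower and 6 higher, with a median of 0.426 points. Zfp42, a marker of pluripotent cells, was 73.4% ± 15.4 (SD, n = 21) and 77.4% ± 9.84 (SD, n = 23). Of 124 epithelial genes 12 had a member, 13 in all, with 7 lower. Ovol2, an epithelial transcription factor, was 61.4% ± 8.87 and 53.7% ± 12.3 (edgeR quasi-likelihood test, adjusted p = 0.560). Of 105 hepatic and plasma protein genes 3 had one, with 1 lower, and Igfals, the carrier subunit of circulating IGF, was 27.8% ± 12.7 and 34.2% ± 16.8. Of 194 neuronal and peptide hormone genes 12 had one, 13 in all, with 10 lower and a median of -1.66 points. Stx1a, a syntaxin of synaptic vesicle release, was 54.6% ± 29.4 and 39.5% ± 26.2, a wide spread in both genotypes. In the lists without a call the count at an unadjusted p under 0.05 was 2 for leukocyte genes, 1 each for the excitation-contraction and the endothelial lists, and 0 for the others. Over all clusters 8.28% were lower at that p and 1.04% were called lower, so in lists of 3 to 13 members these counts are near the background. By the quasi-binomial model and limma, Pax7 was again the single member of any list past the threshold. Of the 14 genes on the list taken from the study, 1 (Pax7) had a CpG-poor promoter cluster. That list leaves out other genes the study names for RNA changes, such as Eya4 and Hoxc9.

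At each single time the genotypes gave no call among the members. By the edgeR quasi-likelihood test, the count was 0 at rest and likewise 0 after 10 min, 30 min or 60 min. Over all 51038 clusters that test called 2, 7, 8 and 5 at these times, so 0 among the members is near the background. By a quasi-binomial model 0, 0, 2 and 0 members passed. The counts over all clusters at single times in that model are not given here. At an unadjusted p under 0.05, 29 members were lower and 12 higher at rest, where 3.24% of all clusters were lower. At 10 min 32 were lower and 13 higher (3.58% of all clusters lower), at 30 min 44 and 9 (4.26%), and at 60 min 58 and 9 (3.98%). The mean level was lower in mD3AKO at 592, 584, 664 and 681 of the 1069 members in that order of times, and the median difference was -0.789, -0.628, -1.67 and -1.73 points. Over all clusters the medians were -0.241, -0.266, -0.702 and -0.539 points. At all 4 times 16.6% of the members were lower and at none 4.30%, against 14.3 and 4.37% of all clusters.

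Within the sets of sample numbers, each with fewer samples than the whole, no member was called. In samples 1 to 25 and in samples 26 to 50, fitted alone, 0 members passed the edgeR quasi-likelihood test, and 61 and 43 were lower at an unadjusted p under 0.05 (11 and 4 higher). The shares over all clusters in these fits are not given here. All 14 called members were lower in mD3AKO in both sets, and in both females and males. Their unadjusted p was under 0.05 in both sets (edgeR quasi-likelihood test), apart from Olfml1, Zbtb17, Rnps1 and Lyl1, where it was so in a single set. The 14 were chosen on both sets together, so these p-values are not independent evidence. The size was alike in some, such as Svbp with -22.9 and -20.3 points, and unlike in others. It was -24.8 and -4.70 points at Rnps1, -12.4 and -37.0 at Zbtb17, -4.05 and -11.1 at Lyl1, and -19.4 and -9.68 at Olfml1. Whether the sets differed was not tested.

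Exercise was examined through the time after it. With time as a factor of 4 levels, 0 members passed the edgeR quasi-likelihood test and 31 had an unadjusted p under 0.05 (2.90%, against 2.87% of all clusters). The interaction of genotype and time had 0 members past the threshold and 32 at an unadjusted p under 0.05 (2.99%, against 2.77% of all clusters). The quasi-binomial model and limma also called 0 for both. The likelihood ratio test called 10 for time (392 of all 51038 clusters) and 7 for the interaction (418 of all clusters). The comparisons of 10, 30 and 60 min with rest in each genotype had 0 called members as well, and 0 of all 51038 clusters were called. At an unadjusted p under 0.05 there were 31 to 41 members (2.90 to 3.84%). Over all clusters the share was 2.80 to 4.28%, so these counts are near the background.

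The members with the lowest p for time differed among the groups without an order in time. Card10, which encodes a scaffold of NF-kB signalling, was at 19.0% ± 13.9 (SD, n = 5) in WT at rest, 2.19% ± 2.59 (SD, n = 5) at 10 min, 13.5% ± 7.26 (SD, n = 5) at 30 min and 7.94% ± 4.39 (SD, n = 6) at 60 min. In mD3AKO it was 7.21%, 0.255%, 10.2% and 4.06%. AI854703 was at 44.8, 70.7, 74.8 and 49.0% in WT and at 64.5, 61.9, 63.9 and 50.3% in mD3AKO at the same times. Sample numbers 1 to 25 hold rest and 60 min. At AI854703 the WT values at rest and 60 min against 10 and 30 min therefore cannot be told apart from the sets of numbers. At Card10 the WT means at 10 and 30 min, which share a set, were 2.19% and 13.5%, with 60 min between them. Its comparisons of rest with 10 or 30 min still cross the sets. For the interaction the lowest p-values were at Cpb1, a carboxypeptidase of the pancreas, and Ier2, an immediate early gene. Cpb1 went from 70.5% at rest to 86.7% at 60 min in WT, and from 83.0% to 68.0% in mD3AKO, while Ier2 had group means of 0 to 3.55%. All 4 had an adjusted p of 1 in the edgeR quasi-likelihood test.

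Per sample, the members gave a level that was lower in mD3AKO by about the spread between animals. The unweighted mean over the 1069 members was 47.0% ± 1.97 (SD, n = 21) in WT samples and 45.2% ± 1.83 (SD, n = 23) in mD3AKO. The ranges were 43.0 to 49.6% and 40.6 to 48.2%, so the genotypes overlapped, and 18 of 23 mD3AKO samples were below the WT mean. The difference was -1.87 points, and -1.01, -1.25, -2.55 and -2.53 points at rest, 10, 30 and 60 min. It was -1.84 points in samples 1 to 25 and -1.88 in samples 26 to 50, and -1.87 in both females and males. Over all clusters the same mean was 47.6% ± 1.51 (SD, n = 21) and 46.1% ± 1.35 (SD, n = 23). As a score over members chosen with earlier results known, it was given no test.

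**Figure D5:**
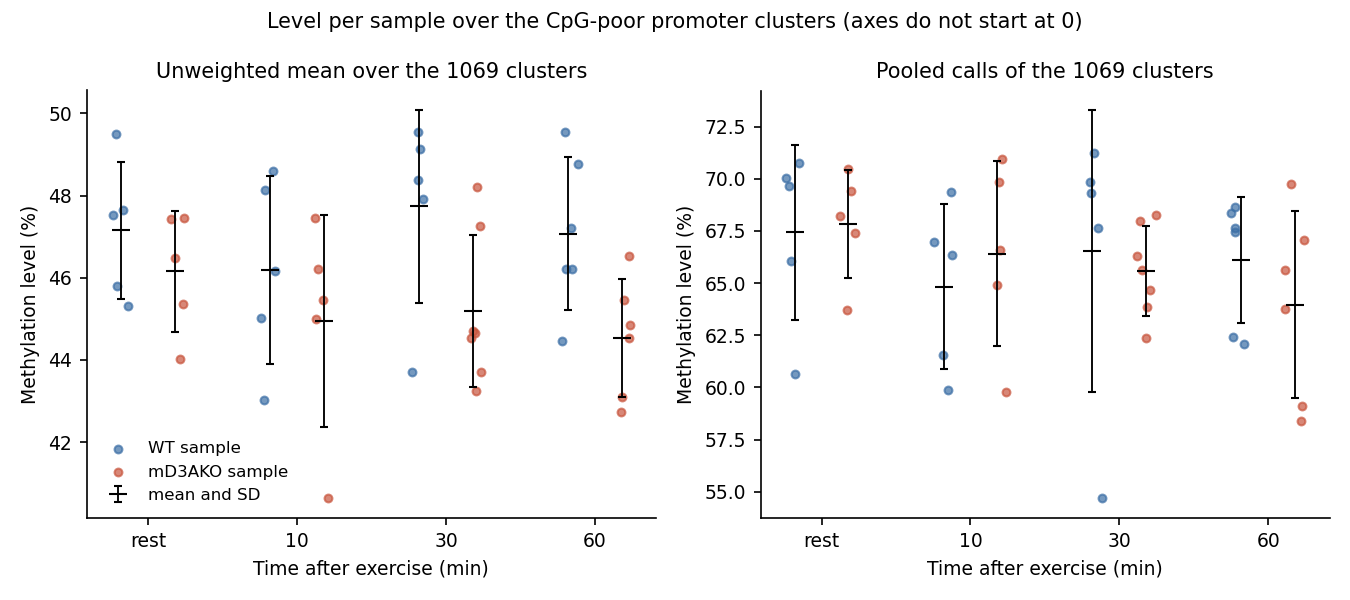
Methylation level of each sample (y axis, percent, not starting at 0) over the 1069 CpG-poor promoter clusters by time after exercise (x axis, min), as the unweighted mean over the clusters and as pooled calls, with the mean and SD of each group. The means of mD3AKO lie below those of WT at all 4 times for the unweighted mean, and at 30 and 60 min alone for pooled calls.

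Pooled calls gave a smaller difference. With all calls of the members added up, WT samples averaged 66.2% ± 4.35 (SD, n = 21) and those of mD3AKO 65.8% ± 3.55 (SD, n = 23). The member of Gm10801, picked out after its values were seen, held 34.6 to 56.9% of the members' calls in each sample, with up to 433085 calls, and was at 91.4% in WT and 91.6% in mD3AKO. Without it the pooled level was 44.4% ± 4.57 (SD, n = 21) and 42.6% ± 3.82 (SD, n = 23), a difference of -1.82 points.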

How the data were processed

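RRBS libraries were made from soleus DNA cut with MspI and treated with bisulfite. Per the submitters' notes and methods, the authors trimmed reads with Trim Galore 0.4.0 and cutadapt 1.9.1 and used Bismark 0.18.1 with mm10, which is GRCm38. CpGs on autosomes were kept where no sample had under 8 reads. The deposited values are raw counts, of methylated and of unmethylated calls, for each CpG in each sample, and the authors' cluster, CpG number and promoter columns were used as deposited. The series lists 50 samples, of which 44 were used (12819404 to 41285655 calls). The other 6 were not used here, and 1 of them carried labels that disagreed on its genotype.

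Counts were summed per cluster and modelled in edgeR 4.0.16 (R 4.3.3) with a coefficient per sample, 8 group means and 1 common dispersion of 0.437 for all clusters, and the quasi-likelihood F test was two-sided. P-values were adjusted by Benjamini-Hochberg over all 51038 clusters. The genotype effect is the mean of the 4 mD3AKO groups minus that of the 4 WT groups as a log2 odds ratio, with SE from the F statistic. A level is methylated over all calls in percent, and group values are unweighted means over samples. The procedure was also run on simulated data, with clusters of intermediate level and a single fixed spread. Very low and very high levels were not simulated, the outcome is not given here, and no conclusion is drawn from it. Replicates are separate animals.

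Alternatives were the likelihood ratio test, a quasi-binomial model (pseudocount 0.5), limma 3.58.1 (pseudocount 1), sex as a covariate, CpGs with 20 or more reads in every sample, the sets of sample numbers, other limits of the clusters, and leaving out each sample. Positions and genes come from GENCODE M21, in which 1019 of the 1021 promoter genes had a symbol, and sequences from RefSeq's GRCm38. The members, gene lists and tests were chosen with earlier results of these data known. Named members are up to 12 called with the lowest p, at least 10 points and 20 calls in every sample (7 met this), and any called higher. Also named are the called members of each gene list or else its lowest p, members of the listed genes from the study, and the 2 lowest p for time and interaction. Others named, among them Myh4, Pgam2, Sox15 and Irf8, were picked after their values were seen.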

Additional observations from a re-analysis of the deposited data

Results flagged for a closer look

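Samples that stood apart from the others of their group were looked for in the mean level over the members and in the 7 called members of at least 10 points and 20 calls in every sample, in 64 groups in all, by the ratio of the gap to the group's range. Chance gives about 1 in 20 such groups, or 3.2, and 3 values were found. In WT at 30 min, sample 32 had a mean level over the members of 43.7%, where the other 4 samples were at 47.9 to 49.6%. The same sample was at 5.81% at the Dnajc8 member, where the others were at 17.0 to 20.9%. In mD3AKO at 30 min, sample 27 was at 18.1% at the Dnajc8 member and the other 6 at 3.73 to 8.92%. Both samples are among the 8 that deviated by over 15 points, and the adjusted p of Dnajc8 stayed under 0.05 without those 8 (edgeR quasi-likelihood test).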

How the results depend on the processing

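The count of 14 called members was 31 by the likelihood ratio test (29 lower, 2 higher, 11 shared with the 14), 26 by the quasi-binomial model (12 shared) and 22 by limma (14 shared). Over all 51038 clusters these tests called 1488, 1296 and 895, where the main test called 532, so the rise was not particular to the members. The count of members was 0 in samples 1 to 25 and 0 in samples 26 to 50 alone, each with 22 samples. Leaving out each sample in turn, in the quasi-binomial model, gave 21 to 29, and 11 of the 14 stayed past the threshold each time. Mta1 and Rnps1 were not past it in that model, and Lyl1 was lost in some of these fits. With sex as a covariate 13 were called, with 20 or more reads per CpG 10 of the 533 members left, with a pooled level of 1 to 99% 15, with every covered CpG in a promoter 14, and with 3 to 9 CpGs 13. Without the 8 deviating samples, an alternative chosen after seeing the data, 11 were called and 9 were shared. The likelihood ratio test called 10 members for time and 7 for the interaction, where the quasi-likelihood test called 0. Over all clusters the likelihood ratio test called 392 for time and 418 for the interaction. At 30 min the quasi-binomial model called 2 members for genotype. The cause was not tested.

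Of 198 alternatives of 23 named members 154 kept direction and side of the threshold, 40 were weaker and 1 stronger. The other 3 changed sign, Ovol2 and Acadl in samples 1 to 25 and Igfals in samples 26 to 50, each with an adjusted p of 1. The difference in level per sample was -2.88 points with medians, -0.394 with pooled calls and -1.84 with 20 or more reads. No paired analysis was possible because each sample number belongs to 1 animal and no 2 groups share one.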
